A study of Mus musculus with 6 samples.

Results

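The transcripts examined here encode 10 receptors for hematopoietic growth factors and cytokines: the receptor tyrosine kinases Kit, Flt3 and Csf1r, the interleukin-3 and GM-CSF receptor subunits Csf2ra, Il3ra, Csf2rb and Csf2rb2, the G-CSF receptor Csf3r, the interleukin-6 receptor alpha chain Il6ra, and the interferon-gamma receptor chain Ifngr1. They were taken by gene symbol from a table of read counts for 46983 genes, and all 10 were present and passed the filter on low counts, as did 13705 genes in all. Poly-A RNA had been sequenced from mouse leukemia cells driven by MLL-AF9, an oncogenic fusion found in human acute leukemias. The first group came from Alox5-/- C57BL/6J donors (3 libraries) and the other from wild-type (WT) C57BL/6J donors (3 libraries), all untreated, with 28985597 to 38695948 gene counts per library. Alox5 encodes 5-lipoxygenase, the enzyme that begins leukotriene synthesis, and the series asks how it bears on leukemic stem cells and drug resistance.

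Both groups share the retroviral MLL-AF9 fusion and a GFP reporter. Per the labels, donor marrow cells that were lineage negative, Sca-1 positive and c-Kit positive (LSK cells) were sorted, transduced, and the GFP-positive cells given to irradiated C57BL/6J recipients. The sort on c-Kit and Sca-1 protein therefore came before transformation, and the labels do not say by which markers the sequenced cells were sorted. All 3 libraries of a genotype carry the same cell line name. They are called biological replicates, but the animals or cultures behind them are not given, so every p-value speaks only to the spread among these libraries, which may be technical. The labelled LSK identity was checked against its markers. Kit was abundant, but Ly6a, which encodes Sca-1, stood at 0.763 ± 0.158 CPM in Alox5-/- cells and 1.06 ± 0.169 CPM in WT cells (SD, n = 3 each), and Procr, Slamf1, Mecom, Hlf and Cd27 did not pass the filter on low counts. The other markers of the list were present: Cd34 at 227 ± 3.39 against 177 ± 3.04 CPM (called higher), Cd48 at 29.7 ± 2.07 against 45.6 ± 1.01 CPM (called lower) and Prom1 at 6.69 ± 0.166 against 4.45 ± 0.703 CPM (called higher). Levels are given as CPM, in which a gene's reads are divided by the library total after adjustment by TMM factors. Alox5 itself was 64.2 ± 1.87 CPM in Alox5-/- cells and 105 ± 1.87 CPM in WT cells, so that the transcript was reduced but present in the libraries labelled Alox5-/-. Which part of the gene the allele alters is not known from the labels.

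Growth factor receptors fall into families by structure. Kit, Flt3 and Csf1r are receptor tyrosine kinases, which phosphorylate themselves when stem cell factor, FLT3 ligand or M-CSF brings the chains together, and which are marks of progenitors (Kit, Flt3) and of monocytes and macrophages (Csf1r). The cytokine receptors have no kinase of their own and signal through bound JAK kinases and STAT factors. The interleukin-3 and GM-CSF receptors each pair a ligand-specific alpha chain (Il3ra, Csf2ra) with the common beta chain Csf2rb, and the mouse has an additional beta chain, Csf2rb2, that serves interleukin-3 alone.

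Csf2rb and Csf2rb2 are neighbouring copies on chromosome 15 (mm10), at 78325752 to 78353847 on the plus strand and 78282507 to 78305721 on the minus strand. Their annotated coding sequences were aligned, and 95.2% of 2631 aligned bases were identical, with 242 bases in the longest identical run. The 90 coding bases in which they differed most, at 16 positions, are shown because it is through such letters that a read can be assigned to either gene. They lie at 78338897 to 78338986 in Csf2rb (transcript Csf2rb-206, coding bases 308 to 397) and at 78294345 to 78294434 in Csf2rb2 (transcript Csf2rb2-201, coding bases 311 to 400). Capitals mark the differing bases.
Csf2rb: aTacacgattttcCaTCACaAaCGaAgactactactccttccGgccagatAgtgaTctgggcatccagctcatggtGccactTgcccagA
Csf2rb2: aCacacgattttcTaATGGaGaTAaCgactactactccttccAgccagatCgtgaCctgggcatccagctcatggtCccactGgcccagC
Over all annotated transcripts, 12.3% of the 50-base words of Csf2rb and 18.9% of those of Csf2rb2 also occurred in another gene, mostly in the other copy, and 4.63% and 6.82% of the 100-base words. Of the other receptors, Csf1r shared 14.3% of its 50-base words, mostly with the overlapping gene Hmgxb3, and Csf3r 10.8%, mostly with AC105061.2, while at 100 bases these shares were 13.5% and 0.376%. Reads aligned to more than one place were not counted (24.4 to 24.8% of all reads), so that the counts of both genes leave out their shared stretches, and the values of this pair are uncertain. Read length is not among the details given.

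Promoter sequence was at hand for 8 of the 10 genes (RefSeq, GRCm38.p6), and is printed for the 4 receptors whose change held under every alternative analysis below. Each run gives the 250 bases before the RefSeq transcription start, 5′ to 3′ on the strand of the gene. The outermost GENCODE start lies further upstream for 2 of them, so that 109 of the Csf3r bases and 71 of the Kit bases fall inside the gene as annotated there. Capitals mark AGGAAG or its reverse complement, letters shared by many binding sites of ETS factors such as PU.1. Flt3 (chr5:147400490-147400739, minus strand) and Il6ra (chr3:89913197-89913446, minus strand) had the largest rise and fall, and Csf3r (chr4:126024409-126024658, plus strand) and Kit (chr5:75574737-75574986, plus strand) smaller ones.
Flt3: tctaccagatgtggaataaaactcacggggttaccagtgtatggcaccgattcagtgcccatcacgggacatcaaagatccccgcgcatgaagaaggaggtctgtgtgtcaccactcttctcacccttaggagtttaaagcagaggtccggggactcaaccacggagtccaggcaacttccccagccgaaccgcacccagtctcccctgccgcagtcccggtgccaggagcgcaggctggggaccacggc
Csf3r: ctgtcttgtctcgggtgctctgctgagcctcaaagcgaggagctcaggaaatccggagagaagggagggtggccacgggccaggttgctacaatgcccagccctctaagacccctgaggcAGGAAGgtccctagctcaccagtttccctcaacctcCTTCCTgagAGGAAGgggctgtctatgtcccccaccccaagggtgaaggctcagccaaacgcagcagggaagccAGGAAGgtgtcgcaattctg
Il6ra: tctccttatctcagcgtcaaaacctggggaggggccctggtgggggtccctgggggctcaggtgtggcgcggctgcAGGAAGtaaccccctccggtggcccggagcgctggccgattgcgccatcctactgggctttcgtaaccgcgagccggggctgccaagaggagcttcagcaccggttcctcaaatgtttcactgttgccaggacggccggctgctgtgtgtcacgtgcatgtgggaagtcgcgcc
Kit: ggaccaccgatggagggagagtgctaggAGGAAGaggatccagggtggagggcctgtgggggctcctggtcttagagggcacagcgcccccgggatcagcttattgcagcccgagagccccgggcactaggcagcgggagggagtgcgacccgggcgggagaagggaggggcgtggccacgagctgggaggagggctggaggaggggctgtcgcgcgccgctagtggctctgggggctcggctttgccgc
The letters AGGAAG, searched on both strands, were found 4 times in the Csf3r window, the farthest beginning 130 bases before the RefSeq start and the only 1 of the 4 that also precedes the GENCODE start. They were found 1 time each in the Kit and Il6ra windows, before both starts, and 0 times in the Flt3 window. They were found in 6 of the 8 receptor windows, and in 29.5% of 32851 promoter windows of the same length. In the Il3ra and Csf2ra windows, not printed here, 0 matches lay wholly before the GENCODE start. There 220 of the Il3ra bases and 11 of the Csf2ra bases fell inside the gene as annotated in GENCODE. TGTGGT, letters of RUNX sites, was in 0 of the 8 windows and in 14% of all. TTGCNNAA, letters of C/EBP sites, was in 1 of the 8 (Il3ra, inside the GENCODE gene) and in 9.56% of all. The motifs were chosen with these windows in view, and a match is only a match of letters.

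Levels were compared between genes as CPM per kilobase of merged exons, that is, the exons of all annotated transcripts of a gene together. Which transcripts were expressed was not examined, so an effect of length may remain in the order of genes. In WT cells Ifngr1 stood first at 143 ± 1.41, followed by Csf2rb at 41.4 ± 0.73, Csf2ra at 32.3 ± 2.58, Kit at 17.9 ± 0.347, Il3ra at 12.7 ± 1.66, Csf3r at 11.4 ± 0.391 and Csf2rb2 at 9.01 ± 0.339 CPM per kilobase (SD, n = 3). Flt3 at 1.84 ± 0.0189, Il6ra at 1.19 ± 0.0442 and Csf1r at 0.743 ± 0.0713 CPM per kilobase formed the low end. The WT libraries of neighbours in this order did not overlap, except those of Il3ra and Csf3r. In Alox5-/- cells the order was the same but for Kit, which came after Il3ra and Csf3r. There the libraries of Csf2rb and Csf2ra, of Il3ra and Csf3r, of Csf3r and Kit, and of Il6ra and Csf1r overlapped, so the order within these pairs was not beyond the spread.

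**Figure D1:**
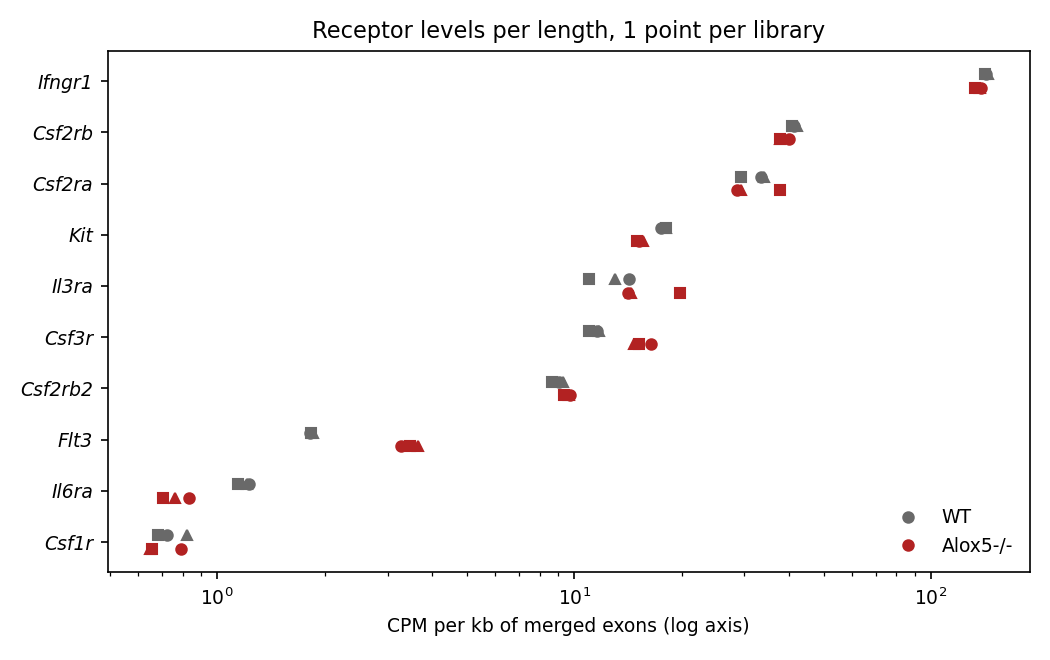
Level of each receptor transcript as CPM per kilobase of merged exons (log axis), 1 point per library, with circles, squares and triangles for replicates 1, 2 and 3. Ifngr1 lies near 143 in WT, and Csf1r, Il6ra and Flt3 lie below 4 in both groups.

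Of the 10 receptors, 3 were higher in Alox5-/- cells (Flt3, Csf3r and Il3ra) and 3 were lower (Kit, Csf2rb and Il6ra), by edgeR's quasi-likelihood test with Benjamini-Hochberg adjustment over all 13705 genes at a threshold of 0.05. Across all genes 53.8% were called, 26.8% higher and 27.0% lower, so the share of receptors called was near that of genes in general. The balance moved with scaling: with total counts 4 receptors were higher and 2 lower, beside 4326 genes higher and 2959 lower, and with the upper quartile 4 and 2, beside 4076 and 3201. The median log2 fold change of the 10 was -0.04, against 0.00 over all tested genes. For 7 of the 10 no library of either group reached into the range of the other group, against 60.0% of all tested genes. Without Alox5-/- replicate 2, a library that stood apart for Csf2ra and Il3ra, 5 of the 10 were called, against 50.7% of all genes. The receptors' summed level was 1063 to 1085 CPM in Alox5-/- cells and 1083 to 1128 CPM in WT cells, with overlap. In such bulk samples fewer cells of a type and less RNA per cell cannot be told apart.

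**Figure D2:**
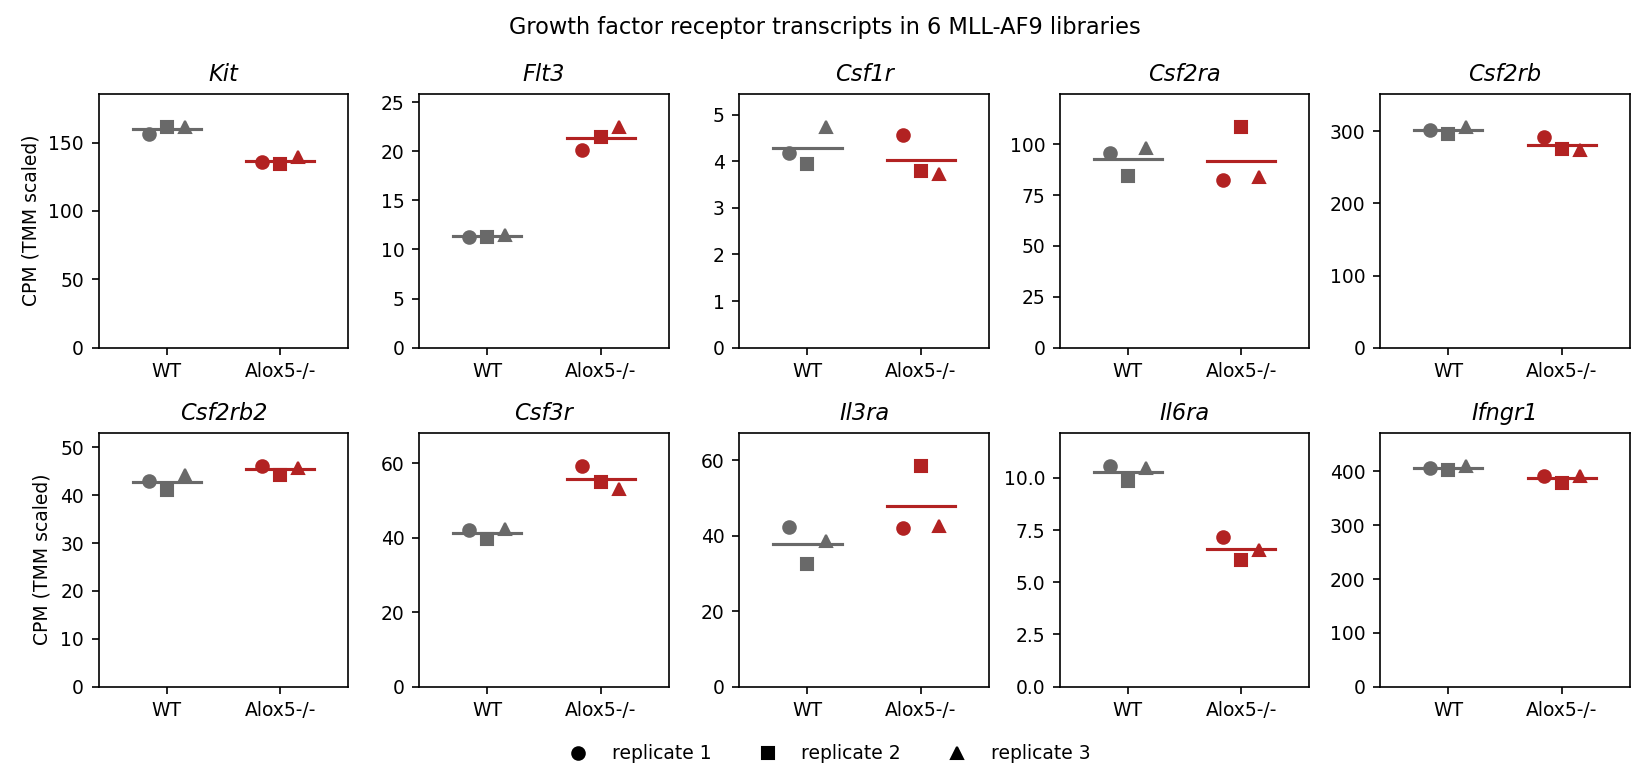
CPM of the 10 receptor transcripts in each of the 6 libraries, with a line at the mean of each group, axes starting at 0, and circles, squares and triangles for replicates 1, 2 and 3. Flt3 is near 11 CPM in WT and 20.2 to 22.5 CPM in Alox5-/-, and Alox5-/- replicate 2 stands above the other libraries for Csf2ra and Il3ra.

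Among the receptor tyrosine kinases, Flt3 and Kit moved in opposite directions. Flt3 (ENSMUSG00000042817.15; chromosome 5, 147330741 to 147400489, minus strand, 25 merged exons) was 20.2, 21.4 and 22.5 CPM in Alox5-/- replicates 1 to 3 and 11.3, 11.3 and 11.5 CPM in WT. Every Alox5-/- library lay well above every WT library. This was a 1.88-fold difference (log2 fold change 0.91 ± 0.06 SE; adjusted p = 1.99e-08, edgeR), larger than that of 94.5% of tested genes. Kit (ENSMUSG00000005672.12; chromosome 5, 75574916 to 75656722, plus strand, 21 merged exons) was 135, 134 and 139 CPM in Alox5-/- cells and 156, 161 and 162 CPM in WT cells. These groups did not overlap either, but the difference was small, 1.17-fold, with a log2 fold change of -0.23 ± 0.03 (SE) and an adjusted p of 2.89e-05 by edgeR.

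Within a library, the ratio of Flt3 to Kit reads, which does not depend on library scaling, was 0.149, 0.160 and 0.162 in Alox5-/- and 0.0720, 0.0701 and 0.0710 in WT. The ratio was thus 2.20-fold higher in Alox5-/-, without overlap (two-sided p = 0.1 by an exact permutation test, the lowest possible with 3 against 3; adjusted p = 0.14 over 7 receptor pairs).

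Csf1r (ENSMUSG00000024621.15; chromosome 18, 61100598 to 61132149, plus strand), the M-CSF receptor, was scarce in both groups. It was 4.56, 3.80 and 3.73 CPM in Alox5-/- cells and 4.19, 3.94 and 4.74 CPM in WT cells, from 111 to 181 reads per library. The groups overlapped (log2 fold change -0.10 ± 0.12 SE; adjusted p = 0.513, edgeR). Exons of Hmgxb3 on the other strand overlap 873 of its 5774 exon bases. Since the strand setting of the counting is not given, reads in that stretch may have been left out or assigned to either gene, and the Csf1r level is uncertain. Hmgxb3 was 80.7 ± 1.07 CPM in Alox5-/- cells and 84.9 ± 3.18 CPM in WT cells.

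Markers of other cells were measured beside these receptors. Of 13 monocyte and macrophage markers, 8 did not pass the filter, Marco, Vsig4 and Timd4 had no read in any library, and C1qa, C1qb and C1qc had 1 to 2 reads in all libraries together. The summed level of the 13 was 93.4 to 95.5 CPM in Alox5-/- cells and 87.9 to 92.2 CPM in WT cells, most of it from Adgre1, Cd68 and Cd14. Adgre1 was called lower (32.9 against 43.1 CPM), while Cd68 (46.9 against 33.8 CPM) and Fcgr1 (4.72 against 3.36 CPM) were called higher. Cd14 and Mrc1 were not called. Of 9 dendritic cell markers, which matter for Flt3, 7 did not pass, and Siglech, of plasmacytoid dendritic cells, had 1 read. Their sum was 20.4 to 22.6 CPM in Alox5-/- cells and 16.7 to 18.0 CPM in WT cells. Nearly all of it came from Itgax, an integrin (11.3 against 5.41 CPM), and the class II gene H2-Ab1 (10.1 against 11.7 CPM). Their part in the Flt3 difference was not tested. Of 9 mast cell and basophil markers, which matter for Kit and Il3ra, Mcpt4, Tpsb2, Cma1, Fcer1a and Prss34 had no read. The summed level was 61.0 to 66.6 CPM in Alox5-/- cells and 129 to 139 CPM in WT cells, carried by Hdc, Mcpt8, Cpa3 and Ms4a2. Hdc (35.1 against 96.0 CPM) and Cpa3 (1.90 against 8.78 CPM) were called lower. Mcpt8 (21.0 against 23.5 CPM) was not called, and Ms4a2 (6.67 against 5.22 CPM) was called higher. The part of these markers in the Kit and Il3ra differences was not tested. B, T and NK cell markers summed to 0.909 to 1.73 CPM and erythroid markers to 0.539 to 0.875 CPM over all libraries. Stromal and endothelial markers summed to 197 to 202 CPM in Alox5-/- cells and 176 to 178 CPM in WT cells, nearly all from Pecam1, which leukocytes express too, while Cdh5, Col1a2, Col3a1, Cxcl12 and Dcn had 0 to 7 reads each in all libraries together.

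The receptors for interleukin-3 and GM-CSF differed by subunit, and 1 library weighed on both alpha chains. Csf2ra (ENSMUSG00000059326.6; chromosome 19, 61223957 to 61228429, minus strand), which binds GM-CSF, was 82.3, 109 and 84.1 CPM in Alox5-/- cells and 95.9, 84.2 and 97.9 CPM in WT cells. The high value was that of Alox5-/- replicate 2, and the groups overlapped (log2 fold change -0.02 ± 0.08 SE; adjusted p = 0.868, edgeR). Without that library Csf2ra was called lower, with a log2 fold change of -0.15 (edgeR adjusted p = 0.0246), and its sign turned to 0.01 with upper-quartile and 0.02 with total-count scaling. Il3ra (ENSMUSG00000068758.7; chromosome 14, 14346275 to 14356011, plus strand), which binds interleukin-3, was 42.1, 58.6 and 42.7 CPM in Alox5-/- cells and 42.4, 32.6 and 38.5 CPM in WT cells. It was called higher (log2 fold change 0.34 ± 0.11 SE; adjusted p = 0.0169, edgeR), although the groups overlapped and Alox5-/- replicates 1 and 3 lay close to WT replicate 1. Without Alox5-/- replicate 2 the log2 fold change was 0.17 and the call was lost (edgeR adjusted p = 0.0628), as it was without WT replicate 2 (0.24; edgeR adjusted p = 0.0896).

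In Alox5-/- replicate 2, Csf2ra was 1.31 times and Il3ra 1.38 times the mean of the other libraries of the group, shifts larger than those of 99.0% and 99.4% of the 10211 genes averaging 5 CPM or more. The other 8 receptors stood at 0.886 to 1.004 times that mean. The immediate early genes Egr1 and Jun were also highest in that library, at 1.73 and 1.27 times the mean of the others. Fos, of the same class, differed little, at 4.343 CPM against 4.204 and 3.565 CPM in Alox5-/- replicates 1 and 3. The cytokine receptor subunit Crlf2 was 29.5 CPM in replicate 2, against 14.5 and 16.6 CPM in replicates 1 and 3. Id1, a target of receptor signalling, was 57.7 CPM, against 40.6 and 40.2 CPM. The part of these genes in the Csf2ra and Il3ra values was not tested.

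The beta chains differed by little between the groups. Csf2rb (ENSMUSG00000071713.4) was 292, 275 and 275 CPM in Alox5-/- cells and 302, 296 and 307 CPM in WT cells. All Alox5-/- libraries lay below all WT libraries, by a small margin (1.07-fold; log2 fold change -0.10 ± 0.03 SE; adjusted p = 0.0161, edgeR). The call was lost with upper-quartile and total-count scaling (edgeR adjusted p = 0.0722 and 0.15) and without Alox5-/- replicate 2, Alox5-/- replicate 3 or WT replicate 3 (edgeR adjusted p = 0.0642, 0.0946 and 0.0612). Csf2rb2 (ENSMUSG00000071714.5) was 46.2, 44.3 and 45.7 CPM in Alox5-/- cells and 42.9, 41.0 and 44.2 CPM in WT cells. It did not pass the test (log2 fold change 0.09 ± 0.04 SE; adjusted p = 0.112, edgeR), but did with upper-quartile and total-count scaling (edgeR adjusted p = 0.042 and 0.0246).

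Ratios within a library avoid that dependence on scaling. The ratio of Csf2rb2 to Csf2rb reads was 0.158, 0.161 and 0.167 in Alox5-/- and 0.142, 0.139 and 0.144 in WT, 1.14-fold higher in Alox5-/- without overlap (exact permutation p = 0.1, two-sided; adjusted p = 0.14). The ratio of Il3ra to Csf2rb reads was 0.144, 0.213 and 0.155 in Alox5-/- and 0.140, 0.110 and 0.126 in WT, also without overlap and with the same exact permutation p. The ratio of Csf2ra to Csf2rb reads was 0.282, 0.395 and 0.306 in Alox5-/- and 0.318, 0.285 and 0.320 in WT, with overlap (exact permutation p = 0.9; adjusted p = 0.9). The direction of this ratio turned when Alox5-/- replicate 2 was left out.

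**Figure D3:**
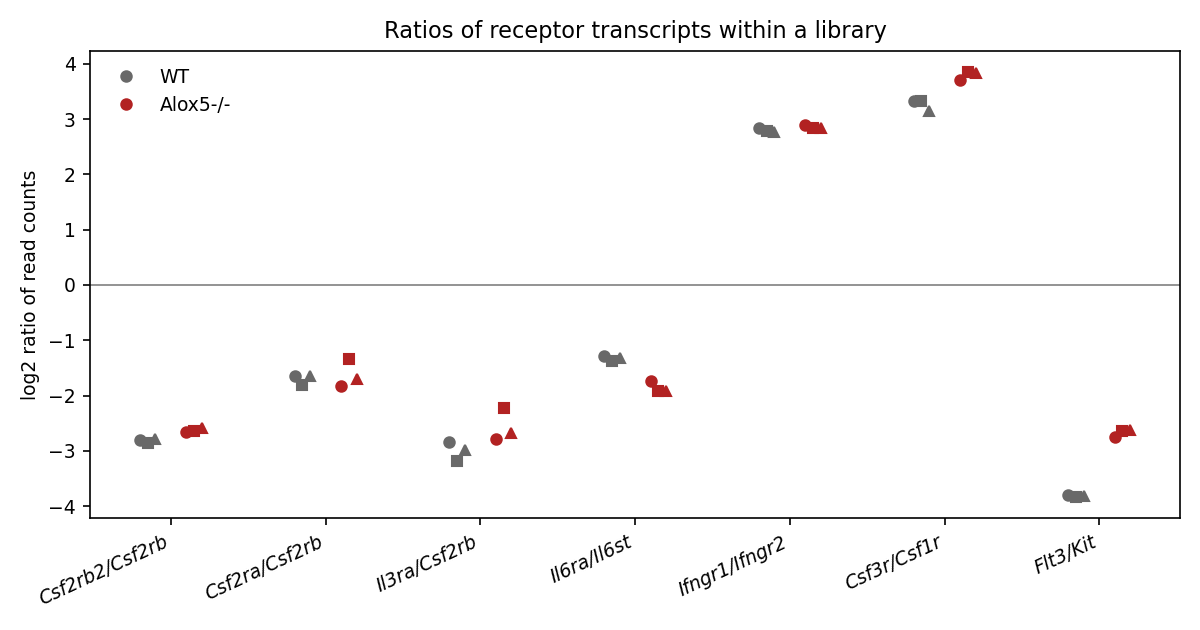
Log2 ratio of read counts for 7 pairs of receptor genes, 1 point per library, with circles, squares and triangles for replicates 1, 2 and 3. The groups are apart for 5 pairs, most of all Flt3/Kit, and overlap for Csf2ra/Csf2rb and Ifngr1/Ifngr2.

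Csf3r (ENSMUSG00000028859.14; chromosome 4, 126024550 to 126044440, plus strand, 17 merged exons), the receptor for G-CSF that supports neutrophil production, was 59.3, 54.8 and 53.2 CPM in Alox5-/- cells and 42.0, 39.7 and 42.2 CPM in WT cells. The groups were clearly apart. The difference was 1.35-fold (log2 fold change 0.43 ± 0.05 SE; adjusted p = 2.77e-06, edgeR). The ratio of Csf3r to Csf1r reads was 13.02, 14.4 and 14.2 in Alox5-/- and 10.02, 10.07 and 8.91 in WT (exact permutation p = 0.1, two-sided; adjusted p = 0.14). Most neutrophil markers moved the other way. Of 8 tested, 6 fell, 1 rose and 1 was not called, so that 87.5% were called against 53.8% of all tested genes. Among those that fell, Camp had 10, 8 and 8 reads in Alox5-/- and 26, 15 and 36 in WT. Mmp9 had 5, 6 and 9 against 26, 22 and 18. Both passed the filter on low counts only through the WT libraries, so the number that fell and the share called were partly set by the filter. Among all tested genes 26.8% were higher and 27.0% lower. The 10 markers summed to 39.6 to 40.1 CPM in Alox5-/- cells and 77.0 to 83.3 CPM in WT cells. S100a8, which encodes a calcium-binding neutrophil protein, was 8.04 ± 0.713 against 25.3 ± 1.01 CPM, and the granule gene Ngp 4.29 ± 0.388 against 11.5 ± 0.969 CPM, while Ly6g rose, at 6.06 ± 0.343 against 4.22 ± 0.579 CPM (SD, n = 3 each).

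Il6ra (ENSMUSG00000027947.11; chromosome 3, 89864059 to 89913196, minus strand, 10 merged exons), the chain that binds interleukin-6, had the deepest fall of the 10. It was 7.19, 6.09 and 6.56 CPM in Alox5-/- cells and 10.6, 9.86 and 10.5 CPM in WT cells. No Alox5-/- library came near a WT library. The level was 1.56-fold lower (log2 fold change -0.64 ± 0.08 SE; adjusted p = 1.21e-05, edgeR). An antisense gene, Gm42809, overlaps 242 of its 8642 exon bases. Its signalling partner Il6st, which encodes gp130, was 23.9 ± 0.804 CPM in Alox5-/- cells and 25.8 ± 0.394 CPM in WT cells and was not called (log2 fold change -0.11 ± 0.05 SE; adjusted p = 0.0783, edgeR). The ratio of Il6ra to Il6st reads was lower in Alox5-/-, at 0.301, 0.264 and 0.266 against 0.413, 0.386 and 0.398 (exact permutation p = 0.1, two-sided; adjusted p = 0.14).

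Ifngr1 (ENSMUSG00000020009.12; chromosome 10, 19591949 to 19610229, plus strand), the ligand-binding chain for interferon gamma, was 392, 378 and 391 CPM in Alox5-/- cells and 406, 403 and 411 CPM in WT cells. The groups did not overlap, but the change was 1.05-fold and missed the threshold (log2 fold change -0.07 ± 0.03 SE; adjusted p = 0.0592, edgeR). It passed with limma-voom (adjusted p = 0.0478) and without WT replicate 2 (edgeR adjusted p = 0.038). Its partner Ifngr2 was 53.3 ± 1.23 against 58.5 ± 2.06 CPM (log2 fold change -0.14 ± 0.04 SE; adjusted p = 0.011, edgeR), a call lost with total-count scaling (edgeR adjusted p = 0.0732) and without WT replicate 3 (edgeR adjusted p = 0.06). The ratio of the chains, 7.14 to 7.45 in Alox5-/- and 6.79 to 7.20 in WT, overlapped between the groups (exact permutation p = 0.2, two-sided; adjusted p = 0.233).

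**Figure D4:**
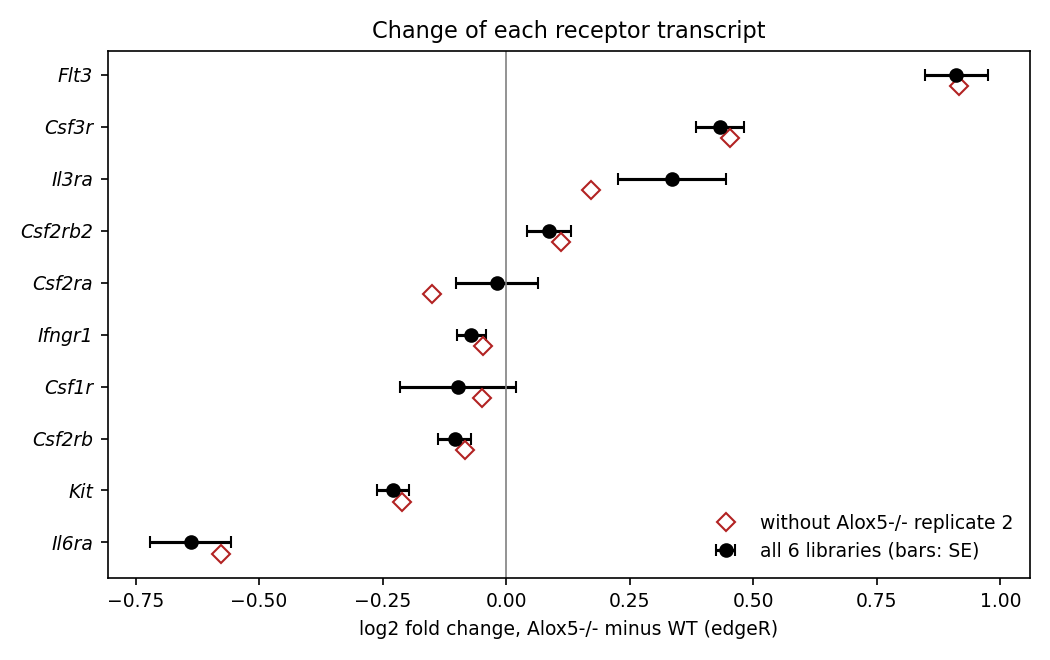
Log2 fold change (Alox5-/- minus WT, edgeR) of each receptor with its SE from all 6 libraries (black) and the value without Alox5-/- replicate 2 (red diamonds). Leaving out that library moves Il3ra from 0.34 to 0.17 and Csf2ra from -0.02 to -0.15.

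The ligands of these receptors were nearly silent in the cells, apart from Flt3l and Csf1. Csf1, which encodes M-CSF, was 5.87 ± 0.175 CPM in Alox5-/- cells and 4.36 ± 0.35 CPM in WT cells (log2 fold change 0.42 ± 0.10 SE; adjusted p = 0.00198, edgeR). Flt3l, the FLT3 ligand, was 5.70 ± 0.29 against 4.58 ± 0.299 CPM (log2 fold change 0.31 ± 0.10 SE; adjusted p = 0.014, edgeR), a call lost with DESeq2 (adjusted p = 0.0865). So for both Flt3 and Csf1r a ligand transcript was higher in Alox5-/-, while Flt3 was higher and Csf1r was not called. The other 7 of 9 ligands did not pass the filter. Il3 and Ifng had no read in any library, which allows up to 0.0775 to 0.103 CPM. Kitl had 2 reads, Csf3 5, Il34 6, Il6 7 and Csf2 21 over all 6 libraries.

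Other cytokine receptor subunits were taken as a list of 26, of which 16 passed the filter. Of these, 7 were higher, 3 were lower and 6 did not pass, so that 62.5% were called against 53.8% of all tested genes. Their median log2 fold change was 0.13. Il10ra, the interleukin-10 receptor alpha chain, was 5.18 ± 1.04 CPM in Alox5-/- cells and 2.04 ± 0.331 CPM in WT cells (log2 fold change 1.34 ± 0.16 SE; adjusted p = 5.47e-06, edgeR). Il10rb, its shared partner chain, rose by 0.25 on the log2 scale, from 91.4 ± 1.69 to 109 ± 1.21 CPM. Ifnar2, a chain of the type I interferon receptor, was 105 ± 1.12 against 80.5 ± 1.33 CPM (log2 fold change 0.39). Its partner Ifnar1 was 96.3 ± 5.01 against 95.7 ± 0.733 CPM and was not called. Il2ra (0.78), Il12rb1 (0.39) and Il15ra (0.31) were also higher, as log2 fold changes. Some receptors of other lineages were near 0: Il5ra had 2 reads in 6 libraries, Epor, the erythropoietin receptor, 14, and Il7r 38.

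Among 18 other receptor tyrosine kinases, 9 passed the filter, 3 of them higher, 1 lower and 5 not called (44.4% called, against 53.8% of all tested genes). The receptors for insulin and for insulin-like growth factor 1 moved apart. Insr was 110 ± 1.29 CPM in Alox5-/- cells and 80.1 ± 3.32 CPM in WT cells (log2 fold change 0.46 ± 0.04 SE; adjusted p = 8.85e-08, edgeR), and Igf1r was 85.5 ± 0.597 against 119 ± 2.77 CPM (log2 fold change -0.48 ± 0.03 SE; adjusted p = 1.84e-08, edgeR). Pdgfrb, a platelet-derived growth factor receptor, was 12.98 ± 1.27 against 11.2 ± 0.797 CPM, a call lost with DESeq2 (adjusted p = 0.0956) and when any one of 4 libraries was left out. Tie1, 1 of the 3 called higher, had 19, 11 and 11 reads in Alox5-/- libraries and 0, 0 and 1 in WT libraries. It passed the filter only through the Alox5-/- group, so its place in the share called was partly set by the filter. With a filter of 5 CPM in at least 3 libraries, 5 of the list were tested, 2 higher and 1 lower. Pooled over libraries, its 41 reads against 1 gave a ratio of 44.45. The 95% counting interval was 7.54 to 1798 (exact binomial), which leaves out the spread between libraries.

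Proximal signalling genes downstream of the receptors numbered 8 higher, 10 lower and 12 not called of 30 (median log2 fold change -0.04), so that 60.0% were called against 53.8% of all tested genes. The balance turned to 11 higher and 6 lower with total-count scaling and to 11 and 8 with upper-quartile scaling. Gab2, an adaptor that Kit and the beta chains use, rose from 91.1 ± 0.464 to 147 ± 2.24 CPM (log2 fold change 0.69 ± 0.03 SE; adjusted p = 2.25e-10, edgeR). The RAS exchange factors Sos2 and Sos1 rose by 0.52 and 0.40 on the log2 scale, and Pik3cg, a PI3-kinase catalytic subunit, by 0.36. Fes, a tyrosine kinase of myeloid cells, fell by 0.39. Stat5b was 66.7 ± 3.01 against 47.2 ± 2.36 CPM (log2 fold change 0.50). Stat5a, chosen after its values were seen, was 44.1 ± 1.35 against 54.8 ± 2.51 CPM (log2 fold change -0.31). Both values are less certain, since how much sequence these paralogs share was not examined.

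Genes known as targets or feedback inhibitors of receptor signalling had 15 higher, 2 lower and 15 not called of 32 (median log2 fold change 0.20), so that 53.1% were called against 53.8% of all tested genes. With a filter of 5 CPM in at least 3 libraries 21 of them were tested, 9 higher and 1 lower. Of all 10298 genes tested with that filter, 3203 were higher and 3016 lower. Dusp6, a phosphatase that is induced by and restrains ERK, was 26.3 ± 3.02 CPM in Alox5-/- cells and 14.4 ± 0.263 CPM in WT cells (log2 fold change 0.87 ± 0.08 SE; adjusted p = 2.44e-07, edgeR). The early response genes Egr1 and Fos were at 4.08 ± 1.48 against 0.735 ± 0.057 CPM and 4.04 ± 0.415 against 1.67 ± 0.355 CPM. Pim1, a kinase induced by STAT5, was 346 ± 6.22 against 278 ± 7.16 CPM, and Myc rose by 0.27 on the log2 scale. Ccnd3, the cyclin D3 gene, fell from 376 ± 20.7 to 272 ± 3.84 CPM (log2 fold change -0.47). Without Alox5-/- replicate 2, 15 of the 32 genes of the list were called, 14 higher and 1 lower. Of all 13915 genes tested without that library, 7049 were called (50.7%).

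**Figure D5:**
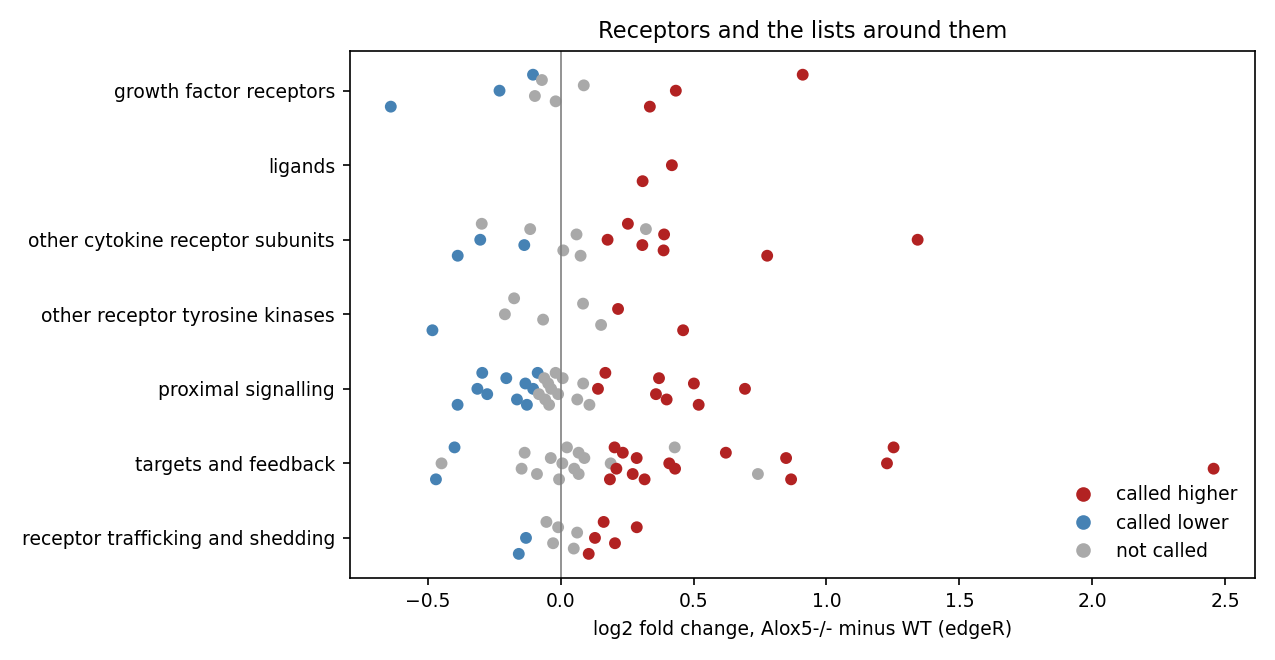
Log2 fold change (Alox5-/- minus WT, edgeR) of each tested gene of the receptor list and 6 lists around it, red where called higher, blue where called lower and grey where not called. Tie1, with 1 read in WT, is left out, and the highest point is Egr1 at 2.46.

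Genes of receptor trafficking and shedding changed little. Of 12, 5 were higher, 2 lower and 5 not called, all within log2 fold changes of -0.16 to 0.29. The share called, 58.3%, stood beside 53.8% of all tested genes, and with total-count scaling 7 were higher and 1 lower. Adam10, a protease that sheds surface proteins, rose by 0.20, Rhbdf2, which guides a related protease to the surface, by 0.29, Cd2ap, an adaptor in receptor uptake, by 0.16 and Eps15, an endocytic adaptor, by 0.11 on the log2 scale. Stam and Sh3kbp1, adaptors in receptor sorting and uptake, fell by 0.16 and 0.13.

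The genes whose pattern over the 6 libraries was most like that of the extreme receptors were found among 10211 genes averaging 5 CPM or more, by the root mean square distance of centred log2 CPM. For Flt3 they were St8sia4, a sialyltransferase (distance 0.0245), Dusp10, a phosphatase of stress kinases (0.0368), Klhl2 (0.042) and Sat1, a polyamine acetyltransferase (0.0444). For Il6ra they were Pdp2, a pyruvate dehydrogenase phosphatase (0.0365), Smyd5 (0.037), Orc1, a subunit of the replication origin complex (0.0442), and Cyb561d2 (0.0451). With 2 groups of 3 libraries this likeness is largely a like difference between the groups.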

How the data were processed

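Raw counts of reads per gene were deposited by the authors in a single table. Per the submitters' processing notes, HTSeq, DESeq2 and the build mm10 were used. For the aligner, annotation release, strand setting and read length, nothing is stated (not given in the sources used here). Library sizes and tests left out 5 summary rows. These hold the reads with several alignments (24.4 to 24.8% of all), those outside annotated genes (9.10 to 10.2%), ambiguous (0.523 to 0.547%), unaligned (4.57 to 5.78%) and low-quality reads (0%). The 27 symbols turned into dates were restored by gene identifier.

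From the counts, edgeR 4.0.16 in R 4.3.3 was run on all genes, with TMM scaling, the default filter and the quasi-likelihood test without covariates, and checked on simulated data. The SE of a log2 fold change is not printed by that test. It was derived as the absolute log2 fold change divided by the square root of the test's F statistic. Exon lengths and positions came from GENCODE vM21, of the same build, which held 98.95% of the identifiers. Coding sequences were aligned with mafft 7.526, and exact permutation tests used scipy 1.17.1. Floors of 3 counts and counting intervals cover counting error only, since amplified reads are not independent molecules.

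The members and lists were chosen with earlier results of these data known. Named were all 10 receptors, their direct partners and ligands, up to 6 called genes of each list by smallest p, and the 4 genes most like the extreme receptors. Outside this rule, Hmgxb3, Jun, Stat5a, Ifnar1, Il5ra, Epor, Il7r, Crlf2, Id1 and the cell type markers were also named. Alternatives were DESeq2 1.42.0, limma-voom (limma 3.58.1), other scalings and filters, a robust fit, a replicate block and each library left out. Every pair of libraries differed by more than sampling noise: the chi-square divided by its degrees of freedom ranged from 2.19 to 10.3 inside groups, highest in both pairs with Alox5-/- replicate 2, and from 35.5 to 50.2 across groups.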

Additional observations from a re-analysis of the deposited data

Results flagged for a closer look

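The share of reads outside annotated genes, which no comparison of receptors used, averaged 9.76 ± 0.389% in Alox5-/- libraries against 9.24 ± 0.134% in WT libraries (SD, n = 3 each), with every Alox5-/- library above every WT library. Groups of 3 libraries were not tested for an outlying library.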

How the results depend on the processing

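Flt3, Csf3r, Il6ra and Kit were called in the same direction under all 15 alternatives, with log2 fold changes of 0.87 to 0.95, 0.39 to 0.48, -0.70 to -0.58 and -0.25 to -0.19. Il3ra lost its call with DESeq2 (adjusted p = 0.155), the robust fit (edgeR adjusted p = 0.209) and without Alox5-/- or WT replicate 2, and the cause was not tested. Csf2ra, not called, changed sign to 0.0091 with upper-quartile and 0.0239 with total-count scaling, and ranged from -0.151 to 0.0549 with single libraries left out (lowest without Alox5-/- replicate 2, highest without Alox5-/- replicate 1). The difference in its log2 ratio to Csf2rb turned from 0.0794 to -0.0626 without Alox5-/- replicate 2, and reached 0.1795 without Alox5-/- replicate 1. The number of receptors called was 5 to 7, and DESeq2 called 1 ligand in place of 2. The stricter filter left 10 called targets in place of 17, with fewer genes tested. Counts over all genes were 6219 to 7622 against 7379. Same-numbered libraries did not deviate together (correlations of -0.0235, -0.0771 and 0.0217). With the replicate number as a block, 7029 genes and the same number of receptors (6) were called. At this depth Csf1r, with 111 to 181 reads, and the ligands below the filter were measured least precisely.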
